A study of Mus musculus with 6 samples.

Results

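Mitochondrial ribosomal protein genes encode the protein components of the mitoribosome, and mouse symbols beginning Mrpl or Mrps followed by a number mark those assigned to the large and to the small subunit. Of 53801 genes in the count tables, 78 were protein-coding genes with such a symbol, 49 with an Mrpl and 29 with an Mrps symbol. They were compared between passage 3 and passage 20 of mouse chemically induced cardiovascular progenitor cells (ciCPCs). These cells had been obtained from fibroblasts by chemical reprogramming, picked as colonies and then expanded. All 6 libraries, 3 per passage, came from wild-type cells of a background that mixes the C57BL/6 strain with 129J/SvE. Per the labels, the expansion medium contained BMP4, Activin A, CHIR99021 (a GSK3 inhibitor) and SU5402 (an FGF receptor inhibitor), so the passages are the only labelled difference. The labels do not state that replicates were separate cultures, so every p-value refers only to variation among these libraries, and that variation may be technical. No batch is named, and passage and batch cannot be told apart.

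The mitoribosome sits in the mitochondrial matrix, bound to the inner membrane, and translates the few messages of mitochondrial DNA, all of which encode core subunits of the respiratory chain and ATP synthase. Its rRNAs come from mitochondrial DNA, whereas every one of its proteins is encoded in the nucleus, made in the cytosol and imported. Some of these proteins descend from bacterial ribosomal proteins, and others are found only in mitochondria. Cardiac muscle depends heavily on oxidative metabolism, and inherited defects of several of these genes in humans lead to cardiomyopathy.

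The promoters are shown first, because recognition sequences of NRF1, of ETS factors such as GABPA, of YY1 and of MYC-type factors are known features of nuclear genes for mitochondrial proteins. RefSeq windows on GRCm38.p6, running from 250 bases before to 50 after an annotated start, were available for 69 of the 78 members, in 75 windows. Both strands were searched for GCATGCG (NRF1 core), CCGGAAG (ETS), AAGATGG (YY1) and CACGTG (E-box). The NRF1 core and the E-box are wholly or nearly their own reverse complement, so that a single site can match on both strands. In all, 12 member windows held 2 kinds of motif and none held more. The 4 below are those of named members with the largest changes between passages, a choice that used the results reported further on. Capitals mark the matches, which on the opposite strand read CGCATGC for NRF1, CTTCCGG for the ETS factors and CCATCTT for YY1. Mrpl36 (chr13:73330759-73331058, plus strand) holds an E-box and a YY1 match, Mrps18c (chr5:100798509-100798808, plus strand) an E-box beside an ETS match, Mrpl32 (chr13:14612988-14613287, minus strand) a YY1 match and 5 NRF1 matches, and Mrpl22 (chr11:58171414-58171713, plus strand) an ETS match and 2 NRF1 matches.
Mrpl36: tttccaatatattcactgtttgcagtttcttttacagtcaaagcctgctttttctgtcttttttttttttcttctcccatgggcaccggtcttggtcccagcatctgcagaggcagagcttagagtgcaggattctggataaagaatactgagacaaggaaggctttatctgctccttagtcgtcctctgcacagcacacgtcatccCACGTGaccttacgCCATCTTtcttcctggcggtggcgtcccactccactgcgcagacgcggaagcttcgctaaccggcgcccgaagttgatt
Mrps18c: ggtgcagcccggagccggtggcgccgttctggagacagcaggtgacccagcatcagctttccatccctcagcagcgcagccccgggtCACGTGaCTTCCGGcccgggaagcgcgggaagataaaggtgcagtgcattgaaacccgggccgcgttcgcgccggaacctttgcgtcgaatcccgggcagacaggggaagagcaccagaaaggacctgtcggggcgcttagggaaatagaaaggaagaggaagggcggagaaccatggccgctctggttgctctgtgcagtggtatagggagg
Mrpl32: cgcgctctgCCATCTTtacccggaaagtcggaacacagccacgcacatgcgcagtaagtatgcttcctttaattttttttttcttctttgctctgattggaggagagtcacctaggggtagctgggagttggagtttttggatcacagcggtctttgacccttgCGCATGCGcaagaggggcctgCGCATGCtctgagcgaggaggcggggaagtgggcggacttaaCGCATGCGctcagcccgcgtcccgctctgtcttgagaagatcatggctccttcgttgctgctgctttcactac
Mrpl22: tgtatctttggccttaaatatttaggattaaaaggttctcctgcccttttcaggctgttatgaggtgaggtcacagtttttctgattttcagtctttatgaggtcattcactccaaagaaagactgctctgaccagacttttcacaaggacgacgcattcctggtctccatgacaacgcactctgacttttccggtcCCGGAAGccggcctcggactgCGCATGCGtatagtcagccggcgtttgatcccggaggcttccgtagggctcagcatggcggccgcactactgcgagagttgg

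The ETS motif was the most frequent of these in the members' promoters. It occurred in 26 of 75 member windows (34.7%), against 8.86% of all 32851 windows and 11.9% of the 20150 windows of protein-coding genes. The YY1 motif occurred in 17.3% of member windows, against 6.34% of all windows and 6.30% of protein-coding windows. The NRF1 core occurred in 10.7%, against 3.58% and 4.57%. The E-box differed least, at 9.33% against 7.15% and 8.03%. None of the 4 motifs was present in 33 member windows (44.0%), compared with 77.2% of all windows and 73.4% of protein-coding windows. Mrpl2, Mrpl48 and Mrps16 had more than 1 window each, all of them counted, and every window of Mrpl2 held the E-box. Cytosolic ribosomal protein genes held the ETS motif in 27 of 79 windows (34.2%), close to the members' share. By the outcome reported below, the ETS motif was found in 15 of 33 windows of members that fell at passage 20, in 3 of 21 windows of members that rose and in 7 of 20 windows of members that did not pass the test. Median GC content of the windows was 62.0%, 57.0% and 57.5% in these groups, and the remaining window belongs to Mrpl53, which was not tested. The part of GC content in the motif counts was not tested. A match is a run of letters and does not show that a factor binds there.

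Libraries held 11387738 to 17721788 counts in genes, and each tested member had between 22 and 1490 counts per library, with a median of 369. Levels are given as CPM (counts scaled to a common library total), for which each library total was multiplied by its TMM scaling factor. The third library at passage 20 stood apart from the others of its group. Its counts differed from theirs with a chi-square per degree of freedom of 8.74 and 10.6, against 1.77 to 2.67 for all other replicate pairs, so no pair was a duplicate. Of 13 cardiac progenitor markers, 12 passed the low-count filter (Gata5 had 4 counts), and their summed level was 975 to 1004 CPM at passage 3 and 910 to 1008 CPM at passage 20. All 12 were called. The 7 higher included Mef2c (from 39.1 to 105 CPM) and Flt1 (from 11.6 to 48.4 CPM), and the 5 lower included Isl1 (from 63.2 to 7.45 CPM). Fibroblast markers moved with passage: 8 of the 9 tested were higher and 1, Thy1, lower (from 13.1 to 5.64 CPM), and S100a4 had 0 counts. Their sum was 14281 to 15009 CPM at passage 3 and 29225 to 34884 CPM at passage 20. Most of it was Col1a1, Col3a1 and Col1a2. The 5 smooth muscle markers summed to 848 to 912 and 865 to 901 CPM. Most of that sum was Acta2 (from 796 to 788 CPM, not called). Of the others, Myh11 (from 4.84 to 1.12 CPM) and Tagln were lower, Cnn1 was higher and Smtn was not called. Endothelial markers, low throughout, summed to 16.9 to 19.7 CPM at passage 3 and to 10.9 to 11.4 CPM at passage 20, with Vwf and Erg lower and Pecam1 higher of 4 tested. Cardiomyocyte and immune markers summed to at most 17.8 CPM in every library, and the immune markers Ptprc and Cd3e had 0 counts. Of 6 cardiomyocyte markers tested, 2 were higher and 2 lower, and of 2 immune markers tested, 1 was higher. In bulk RNA, fewer cells of a type and less RNA per cell cannot be told apart, and the part of these shifts in the results below was not tested.

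Most mitoribosomal protein genes changed between passages, in both directions and by small amounts. Passage 20 was compared with passage 3 by edgeR's quasi-likelihood test on counts, with Benjamini-Hochberg adjustment over all 15143 genes tested and a threshold of 0.05. A gene called here passed that threshold. Of the 77 members that passed the low-count filter, 20 were called higher and 31 lower at passage 20, and 26 were not called. The share called was 66.2%, compared with 74.3% of all genes tested (37.0% higher and 37.3% lower). Without the third library at passage 20, 21 were called higher and 35 lower. The median log2 fold change of the members was -0.05 (quartiles -0.34 and 0.23), beside -0.01 over all genes (quartiles -0.58 and 0.54).

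The members' changes were narrow in size. The median absolute log2 fold change was 0.32 for the members and 0.56 for all genes. A called change of at least 2-fold was seen in 2 members (2.597%), Mrpl41 and Mrpl45, compared with 27.6% of all genes. A called change of at least 1.5-fold was seen in 15 members (19.5%), 5 higher and 10 lower, against 46.9% of all genes. The libraries of the 2 passages did not overlap for 55 members (71.4%), 24 of them higher and 31 lower at passage 20, against 77.5% of all genes. Among the 26 members not called, no log2 change exceeded 0.23 in size. The ranked plot of fold changes shows both tails and the flat middle.

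**Figure D1:**
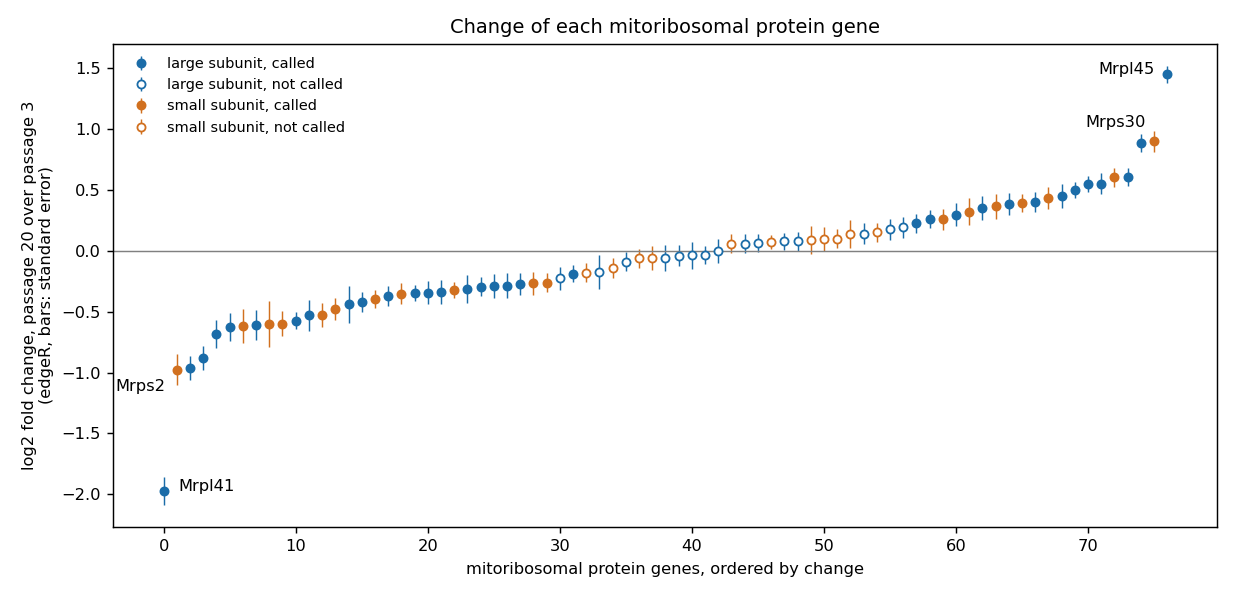
Log2 fold change (passage 20 over passage 3, edgeR) of the 77 tested mitoribosomal protein genes in ranked order, with standard errors as bars. Mrpl41 at -1.97 and Mrpl45 at 1.45 stand at the ends, and 26 members near 0 were not called.

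Scaling bears on these directions. The TMM factors were 1.12 to 1.13 at passage 3 and 0.873 to 0.917 at passage 20. With library totals alone, the median log2 change of all genes was -0.34 and that of the members -0.38, and 8 members were called higher and 50 lower. The higher share of all calls was then 29.9%, against 49.8% with TMM. A scaling factor moves all genes alike, so the members' median stayed 0.04 below that of all genes under each scaling. It was 0.10 below with offsets for GC content and length, and 0.02 above without the low-count filter. The other scalings left the median of all genes about level or moved it down, so that among called members only rises could be lost, and 8 of the 20 rises were called under TMM, RLE and upper-quartile factors and library totals alone, namely Mrpl24, Mrpl28, Mrpl30, Mrpl32, Mrpl38, Mrpl45, Mrps9 and Mrps30. As a share of raw counts, the members together took 0.243% to 0.246% of each passage 3 library and 0.193% to 0.211% of each passage 20 library.

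The largest fall was that of Mrpl41, a large-subunit protein with no bacterial counterpart (chr2:24974117-24975098, GRCm38, minus strand). Mrpl41 stood at 23.5, 21.7 and 21.3 CPM in the passage 3 libraries and at 5.15, 5.27 and 6.41 CPM at passage 20. Each passage 20 value was far below the lowest passage 3 value. The change was 3.92-fold (log2 -1.97, SE 0.12, adjusted p = 5.93e-08, edgeR).

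Of the next members by size, Mrps2, the counterpart of the bacterial small-subunit protein of the same number (chr2:28468066-28471178, plus strand), had 41.0, 44.6 and 44.0 CPM at passage 3 and 18.6, 19.5 and 27.3 CPM at passage 20. The third passage 20 library was nearer to passage 3 than the others, but the groups did not overlap. Mrps2 fell 1.97-fold (log2 -0.98, SE 0.13, adjusted p = 5.77e-05). Mrpl36, a small zinc-binding protein of the large subunit (chr13:73328513-73332178, plus strand), gave 21.5, 25.01 and 23.9 CPM and then 12.2, 11.3 and 12.7 CPM. Its libraries were tightly grouped within each passage, and Mrpl36 fell 1.94-fold (adjusted p = 4.91e-06). Mrpl20, whose bacterial counterpart binds rRNA early in assembly of the large subunit, gave 39.5, 37.1 and 32.7 CPM and then 17.7, 21.8 and 19.8 CPM. It fell 1.84-fold (adjusted p = 1.26e-05), again with no overlap.

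The other 4 of the 8 largest falls were between 1.52- and 1.60-fold. Mrpl55, a large-subunit protein, had 15.5, 15.3 and 15.6 CPM at passage 3 and 9.21, 8.55 and 11.02 CPM at passage 20 (1.60-fold, adjusted p = 0.000221). Mrpl16, the counterpart of a bacterial protein near the peptidyl transferase centre, had 19.2, 16.4 and 15.97 CPM and then 10.9, 10.2 and 12.1 CPM (1.54-fold, adjusted p = 0.000428). Neither gene's groups overlapped. Mrpl12, the stalk protein to which translation factors are recruited, had 26.3, 24.1 and 27.1 CPM and then 13.4, 17.2 and 20.1 CPM (1.52-fold, adjusted p = 0.00119). Its 3 passage 20 libraries were spread more widely than those of passage 3. Mrps34, a mitochondria-specific small-subunit protein, had 14.5, 14.4 and 14.2 CPM and then 7.62, 8.65 and 11.6 CPM (1.53-fold, adjusted p = 0.00204). Mrps34 shares 1309 exon bases with Mapk8ip3 on the opposite strand, a gene with 34675 counts in all that itself rose (log2 1.43). Strandedness of the counting was not given in the sources used here, and the value of Mrps34 is uncertain.

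The largest rise was that of Mrpl45, a large-subunit protein at the mouth of the peptide exit tunnel that holds the mitoribosome to the inner membrane (chr11:97315716-97329920, plus strand). Mrpl45 stood at 40.5, 47.8 and 45.7 CPM at passage 3 and at 122, 123 and 123 CPM at passage 20. Passage 20 libraries were nearly identical and lay far above every passage 3 library. The change was 2.74-fold (log2 1.45, SE 0.07, adjusted p = 1.1e-08, edgeR).

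Mrps30, which sits in the large subunit despite its symbol (chr13:118378381-118387252, minus strand), had 17.3, 18.9 and 20.0 CPM and then 36.6, 36.1 and 32.5 CPM. It rose 1.87-fold (adjusted p = 3.27e-06) with no overlap. Mrpl24, a bacterial-type protein close to the exit tunnel, had 34.0, 37.8 and 37.1 CPM and then 71.0, 68.1 and 62.7 CPM. Mrpl24 rose 1.85-fold (adjusted p = 9.01e-07), and it shares 594 exon bases with Rrnad1 on the opposite strand, which also rose (log2 1.17), so that its reads cannot be fully separated without strand. Mrpl38, a protein of the central protuberance, had 44.98, 42.1 and 43.0 CPM and then 62.2, 64.0 and 71.9 CPM (1.52-fold, adjusted p = 1.7e-05). Mrps9, a counterpart of a bacterial protein of the small-subunit head, had 32.7, 34.4 and 35.4 CPM and then 52.7, 56.1 and 47.6 CPM (1.52-fold, adjusted p = 2.96e-05). Every passage 20 library of both genes lay above every passage 3 library.

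The remaining 3 of the 8 largest rises were large-subunit proteins with bacterial counterparts. Mrpl32, which in mouse and yeast is cut by the m-AAA protease before it joins the subunit, had 25.4, 28.6 and 26.0 CPM and then 42.7, 36.5 and 38.3 CPM (1.47-fold, adjusted p = 0.000114). Mrpl30 had 36.4, 38.6 and 38.6 CPM and then 55.5, 57.7 and 53.5 CPM (1.47-fold, adjusted p = 1.7e-05). Mrpl28 had 41.6, 46.6 and 45.3 CPM and then 61.3, 63.7 and 63.9 CPM (1.41-fold, adjusted p = 4.23e-05). None of the 3 overlapped between passages. The plot of levels by library shows all 16 of these genes.

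**Figure D2:**
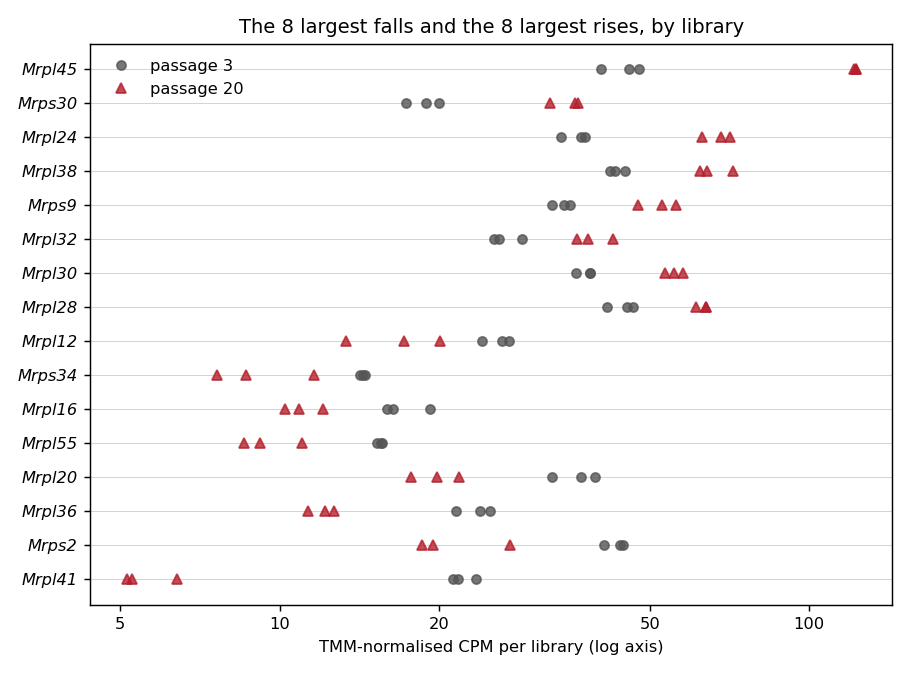
CPM in each library (log axis) of the 8 members that fell most and the 8 that rose most, with points for the 3 libraries of each passage. Passage 3 and passage 20 points are separate for all 16 genes, from Mrpl41 (lowest passage 3 value 21.3, highest passage 20 value 6.41) to Mrpl28 (highest passage 3 value 46.6, lowest passage 20 value 61.3).

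Both subunits held genes that moved each way, and the share called over all genes tested was 74.3%. Of 48 tested genes with an Mrpl symbol, 13 were called higher, 20 lower and 15 not (68.8% called), with a median log2 change of -0.05 (quartiles -0.34 and 0.24). Of 29 genes with an Mrps symbol, 7 were called higher, 11 lower and 11 not (62.1% called), with a median of -0.06 (quartiles -0.35 and 0.15). Both changes of at least 2-fold belonged to the large subunit. Placed by structure, with Mrps18a and Mrps30 in the large subunit and Mrps36 in neither, the counts were 14 higher and 21 lower of 50 for the large and 6 higher and 10 lower of 26 for the small subunit.

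Levels summed per subunit were compared per length, as CPM per kilobase of annotated exon. The large-subunit sum was 676, 669 and 672 CPM per kilobase at passage 3 and 654, 646 and 695 at passage 20. The small-subunit sum was 321, 319 and 326 CPM per kilobase and then 296, 301 and 316. The small-subunit values at passage 20 lay below those at passage 3, and the large-subunit values overlapped. With the longest transcript as length, the small-subunit values overlapped too (442 to 452 at passage 3 and 421 to 443 at passage 20). All these sums use TMM scaling, and none was made with library totals alone. As raw counts, all members together took 0.243% to 0.246% of each passage 3 library and 0.193% to 0.211% of each passage 20 library. Overlap of the sums between passages therefore depends on the scaling, whereas the share of a subunit within a library does not. The large-subunit share of the total was 67.8%, 67.7% and 67.4% at passage 3 and 68.9%, 68.2% and 68.8% at passage 20, with means of 67.6% ± 0.228 and 68.6% ± 0.373 (SD, n = 3). The groups did not overlap, but the shares differed by little, and without Mrpl41 and Mrpl45 they were 66.0% to 66.4% and 66.3% to 67.1%, which overlap. No test was made of this share, and 3 against 3 samples cannot give an exact two-sided p under 0.10. The summed level of all members without length scaling was 2181 ± 3.04 CPM at passage 3 and 2239 ± 54.7 CPM at passage 20.

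**Figure D3:**
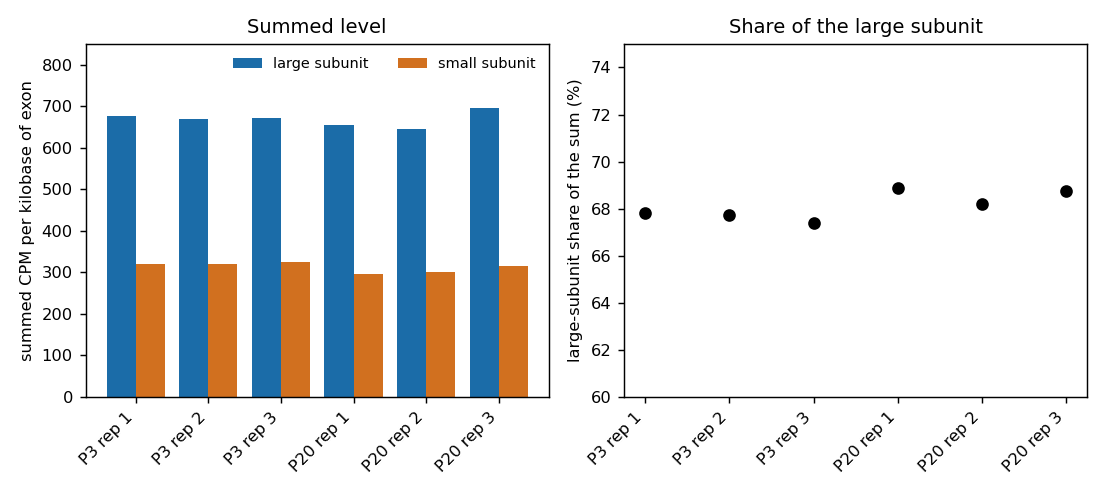
Summed CPM per kilobase (TMM scaling only) of large- and small-subunit members in each library, and the large-subunit share in percent on an axis that starts at 60%. From passage 3 to passage 20 the small-subunit sums go from 319 to 326 down to 296 to 316, and the large-subunit share from 67.4% to 67.8% up to 68.2% to 68.9%.

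Members were also grouped by descent. Of 48 members with bacterial counterparts, 14 were called higher and 18 lower (66.7% called). Their median log2 change was -0.04 (5 and 31, median -0.38, with library totals alone). Of 29 tested mitochondria-specific members, 6 were called higher and 13 lower (65.5% called). Their median was -0.06 (3 and 19, median -0.39, with library totals alone). Of all genes tested, 74.3% were called, so both shares were below that of all genes. Mrpl41 and Mrpl45 are both mitochondria-specific.

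Members are next given by their place in the large subunit, beside 37.0% of all genes tested called higher and 37.3% lower. The stalk, which recruits elongation factors, had 0 of 3 genes called higher by edgeR and 2 lower. DESeq2 gave the same counts. Beside Mrpl12, Mrpl11 fell from 32.0, 34.2 and 30.8 to 23.0, 23.8 and 25.7 CPM (log2 -0.42, adjusted p = 0.000675). Mrpl10, which anchors the stalk, had 40.0, 40.5 and 42.6 and then 37.7, 35.9 and 42.1 CPM, which overlap (log2 -0.09, adjusted p = 0.313). All 3 log2 changes were negative, so that 0 were higher at an unadjusted p under 0.05. Without the third passage 20 library, all 3 were called lower.

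In the central protuberance, which contacts tRNAs and the small subunit, 2 of 6 genes were called higher and 3 lower. The counts were 2 and 2 by DESeq2. With library totals alone they were 1 and 4, and Mrpl48 was not called higher. Mrpl38 and Mrpl48 rose (log2 0.61 and 0.35), and Mrpl40, Mrpl46 and Mrpl58 fell (log2 -0.29, -0.44 and -0.31). The groups of Mrpl46 overlapped. Mrpl58, a peptidyl-tRNA hydrolase that became part of the mitoribosome, had 16.8, 14.4 and 14.7 CPM and then 11.5, 11.4 and 13.8 CPM, a small difference (adjusted p = 0.0267). Mrpl18, which takes part in import of a single kind of cytosolic ribosomal RNA in human cells, was not called (log2 -0.04, adjusted p = 0.786). Mrpl48 shares 708 exon bases with Rab6a on the opposite strand, which also rose (log2 0.91).

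Around the peptide exit tunnel, 3 of 8 genes were called higher and 2 lower with TMM, with a median log2 change of 0.16. With library totals alone, 2 were higher and 3 lower, with a median of -0.17. Mrpl45, Mrpl24 and Mrpl23 rose, Mrpl23 from 23.9, 20.9 and 22.2 to 31.2, 27.8 and 29.7 CPM (log2 0.40, adjusted p = 0.00115). Mrpl22 and Mrpl17 fell, Mrpl22 from 22.0, 19.3 and 20.2 to 13.4, 11.8 and 17.1 CPM (log2 -0.53, adjusted p = 0.00287) and Mrpl17 by a log2 change of -0.29 (adjusted p = 0.00485). Mrpl39, Mrpl44 and Mrpl47 were not called (log2 0.14, 0.18 and 0.00). Transcripts for proteins of this region thus moved both ways.

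The 3 Mrps18 genes encode different proteins related to the same bacterial protein. Mrps18b and Mrps18c sit in the small subunit, while Mrps18a sits in the large. Mrps18b rose from 11.3, 11.7 and 10.5 to 15.6, 13.5 and 14.1 CPM (log2 0.37, adjusted p = 0.00793). It was not among the rises called under all 4 scalings, and it shares 638 exon bases with Gm16279 on the opposite strand. Mrps18c fell from 4.18, 3.26 and 3.94 to 2.18, 2.68 and 2.63 CPM (log2 -0.60, adjusted p = 0.0135). Mrps18c had the fewest counts of the tested members, 278 over all libraries, and was not called lower by DESeq2. It shares 250 exon bases with Gm43511 on the same strand. Mrps18a fell slightly, from 32.4, 33.9 and 36.6 to 26.8, 25.9 and 32.6 CPM, with overlapping groups (log2 -0.27, adjusted p = 0.0265). Mrps36, which is a subunit of the oxoglutarate dehydrogenase complex rather than of the ribosome, was level at 20.9, 20.5 and 20.6 and then 21.4, 20.98 and 22.1 CPM (log2 0.06, adjusted p = 0.516).

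Of 3 members listed because variants of their human counterparts are known in cardiomyopathy, 1 was called, and the list is not complete. Mrpl3, a large-subunit protein near the peptidyl transferase centre, fell from 45.2, 44.3 and 43.4 to 28.6, 28.8 and 31.7 CPM (1.49-fold, adjusted p = 2.34e-05). Mrpl44, a relative of ribonuclease III in the large subunit, had 21.7, 23.3 and 22.4 and then 23.6, 24.3 and 28.2 CPM (adjusted p = 0.0957). Mrps22, a mitochondria-specific small-subunit protein, had 24.8, 26.7 and 21.8 and then 21.8, 24.2 and 24.2 CPM, which overlap (adjusted p = 0.589).

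Per kilobase of exon, members ranged from 1.32 to 38.9 CPM per kilobase over all libraries, with a median of 10.3, beside 5.39 for all genes tested and 153 for cytosolic ribosomal protein genes. The highest were Mrpl28 (38.9), Mrpl34 (34.2), Mrps21 (32.6), Mrpl45 (32.1), Mrpl54 (31.8) and Mrpl2 (24.6). Mrpl28 ranged from 30.1 to 33.7 CPM per kilobase at passage 3 and from 44.4 to 46.3 at passage 20, whereas Mrpl45 ranged from 15.6 to 18.4 and then from 46.8 to 47.2. At passage 3 Mrpl34 (36.3 to 37.6) and Mrps21 (36.5 to 39.0) overlapped each other and lay above Mrpl28. The lowest were Mrps35 (2.90), Mrpl47 (2.84) and Mrpl33 (1.32). The median was 13.7 for the large and 7.49 for the small subunit. Annotated exons can be longer than the transcripts used, and with the longest transcript as length Mrps21 came first and Mrpl28 next. Of these genes, Mrps21, a small-subunit protein with a bacterial counterpart, fell from 28.5, 27.0 and 28.8 to 18.7, 19.4 and 22.4 CPM (log2 -0.48, adjusted p = 0.000535). Mrpl2, a core protein of the peptidyl transferase region, also fell (log2 -0.28, adjusted p = 0.0225), with overlapping groups. Mrpl34, Mrpl54, Mrpl33, Mrpl47 and Mrps35 were not called.

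**Figure D4:**
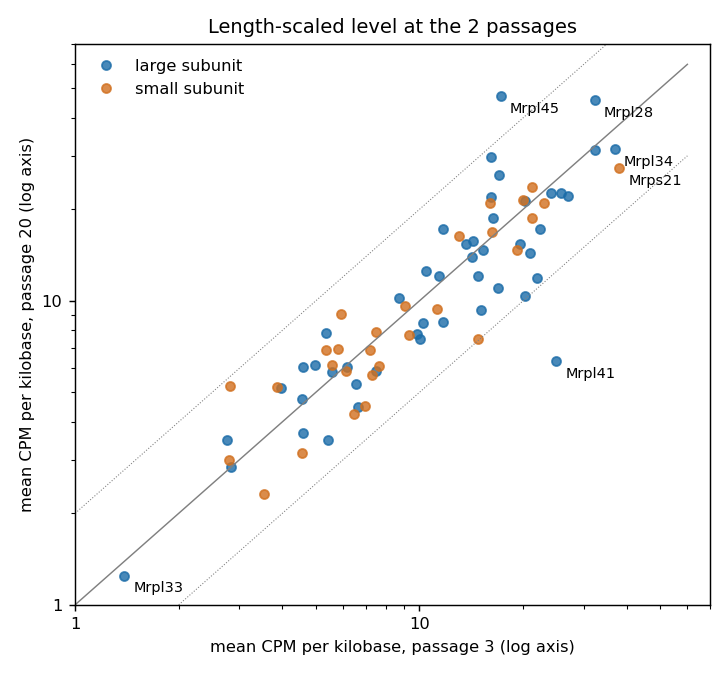
CPM per kilobase of each tested member at passage 20 against passage 3 (log axes), marked by subunit, with a solid line of equal level and dotted lines 2-fold above and below it. Mrpl45 lies farthest above the line and Mrpl41 farthest below, while most members lie close to it.

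Across the 77 members the log2 change had a Spearman rho of 0.26 with exon length, -0.16 with GC content and 0.04 with level per kilobase, given as descriptions over genes of the same libraries. Many members lie beside another gene. Of the tested members, 33 (42.9%) had a protein-coding neighbour on the opposite strand whose start lay within 1000 bases, in head-to-head order, compared with 15.2% of 13452 tested protein-coding genes. Such pairs with both genes tested numbered 30, and both genes were called in 14, of which 10 moved in the same direction and 4 in opposite directions. Where the 2 gene bodies lie apart, 4 pairs moved in the same direction and 4 in opposite directions, and where they overlap, all 6 moved in the same direction. Among all head-to-head pairs of tested protein-coding genes, 62.6% of the 478 with both genes called moved in the same direction. The share was 64.3% of the 291 whose bodies lie apart and 59.9% of the 187 whose bodies overlap. Overlapping genes can share reads, so that their values are not independent. Mrpl46 and Mrps11 are each other's partner and both fell (log2 -0.44 and -0.60), but they share 173 exon bases. Mrpl36 fell, as did Ndufs6, a subunit of respiratory complex I (log2 -0.96 and -0.52), with which it shares 30 exon bases. The promoter window shown above for Mrpl36 belongs to another annotated start, downstream of the one that faces Ndufs6. Mrpl43 fell with Twnk, the mitochondrial DNA helicase (log2 -0.34 and -0.82), with which it shares 507 exon bases. Mrpl32 rose with the proteasome gene Psma2 (log2 0.55 and 0.27). Mrpl49, in contrast, fell slightly (log2 -0.19) while its partner Fau, which encodes a cytosolic ribosomal protein, rose (log2 0.99). Mrpl18 was not called beside the chaperonin gene Tcp1 (log2 -0.04 and 1.11).

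Overlap limits several values. In all, 33 of the 78 members share at least 1 exon base with another gene. Mrpl53 (chr6:83109040-83109939, plus strand) was the member that did not pass the low-count filter, with 0 counts in all 6 libraries. Of its 790 exon bases, 695 are shared with Gm42688 on the same strand, and the handling of reads that fit both genes is unknown. Among the 45 members that share no exon base, 14 were called higher and 17 lower, and their median log2 change was 0.06.

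Other components of mitochondrial translation were described by lists. For these and the lists that follow, 37.0% of all genes tested were called higher and 37.3% lower. Of 5 mitoribosomal proteins without an Mrp symbol, 2 were called higher and 1 lower, with a median log2 change of 0.10 with TMM and -0.23 with library totals alone. Dap3, a GTP-binding protein of the small subunit, rose from 65.3, 61.9 and 67.5 to 136, 126 and 130 CPM (2.01-fold, adjusted p = 5.55e-08). Ptcd3, a pentatricopeptide-repeat protein of the small subunit, rose from 67.0, 64.7 and 61.3 to 116, 125 and 72.4 CPM (adjusted p = 0.0154), the third passage 20 library being much lower than the others. Gadd45gip1, a large-subunit protein, fell from 12.5, 10.7 and 12.0 to 5.44, 7.26 and 9.13 CPM (adjusted p = 0.00294). Aurkaip1 and Chchd1 of the small subunit were not called (log2 0.08 and 0.10).

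Of 25 genes for mitoribosome assembly and rRNA modification, 4 were called higher and 11 lower, with a median log2 change of -0.15 (3 higher and 18 lower, median -0.48, with library totals alone). Trub2, a pseudouridine synthase of the mitochondrial large rRNA, fell from 26.8, 29.7 and 28.9 to 7.62, 7.66 and 9.95 CPM (log2 -1.75, adjusted p = 1.35e-07). The RNA helicase Dhx30 fell by 0.47 on the log2 scale (adjusted p = 1.64e-05). Malsu1, which keeps an immature large subunit from joining the small one, and the rRNA methyltransferase gene Mrm1 rose (log2 0.61 and 0.60, adjusted p = 6.06e-05 and 0.000315).

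Of 14 translation factor genes tested, 4 were called higher and 6 lower with TMM, 3 and 8 with upper-quartile factors, and 1 and 8 with library totals alone. The inner-membrane insertase gene Oxa1l rose from 64.5, 67.1 and 73.2 to 115, 112 and 113 CPM, and the elongation factor gene Tufm from 91.0, 90.3 and 92.9 to 119, 124 and 130 CPM (log2 0.73 and 0.44). The elongation factor gene Gfm1 and the release factor gene Mtrf1l fell (log2 -0.46 and -0.67). Of 20 mitochondrial aminoacyl-tRNA synthetase and related genes, 5 were called higher and 10 lower (3 and 14 with library totals alone). Mars2 fell from 18.4, 18.8 and 19.2 to 5.74, 5.77 and 7.56 CPM, and Vars2 fell by 0.56 on the log2 scale. Fars2 and Nars2 rose (log2 0.90 and 1.26). The largest adjusted p among the named genes of these lists was 0.000508 (Mtrf1l).

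Genes for transcription and replication of mitochondrial DNA gave 3 higher and 3 lower of 10 with TMM, 3 and 5 with upper-quartile factors, and 2 and 7 with library totals alone. The transcription factors Tfb2m and Tefm fell (log2 -0.83 and -0.92), and the exonuclease gene Mgme1 and the topoisomerase gene Top1mt rose (log2 0.73 and 0.72). The 13 protein-coding genes of mitochondrial DNA gave 7 lower and 0 higher by edgeR (0 at an unadjusted p under 0.05, and 0 by DESeq2), with a median log2 change of -0.28. Without the third passage 20 library 1 of them was called higher. With library totals alone, 0 were higher and 9 lower, with a median of -0.61. Levels in this list were very uneven. At passage 3, mt-Co1 stood at 2884 CPM and mt-Co2 at 18.7 CPM, and mt-Atp8 had 71 counts over all libraries. The median with TMM is the value of mt-Atp8, so it is uncertain, and the reason for the low counts was not tested.

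Of 9 known regulators of nuclear genes for mitochondrial proteins, 8 were called higher and 1 lower with TMM, and 3 higher and 1 lower with library totals alone. Atf5, a factor of the mitochondrial stress response, rose from 47.9, 51.2 and 56.9 to 162, 156 and 153 CPM (log2 1.59, adjusted p = 5.86e-09). Myc rose from 10.5, 9.92 and 10.0 to 20.6, 20.2 and 36.2 CPM, the third passage 20 library being highest (log2 1.35, adjusted p = 0.000702). The coactivator gene Ppargc1b rose (log2 1.17), and Yy1 rose from 118, 123 and 123 to 160, 162 and 164 CPM (log2 0.42). Esrra, Ppargc1a, Nrf1 and Gabpa rose by smaller amounts (log2 0.37, 0.37, 0.24 and 0.20), and Pprc1 fell (log2 -0.20).

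Genes of the cytosolic ribosome mostly rose. Cytosolic ribosomal protein genes were taken by symbol, which brings in some that are not ribosomal proteins, such as Rps19bp1 (not called) and the pseudogene Rps12-ps3 (called higher). Of 84 such genes tested, 79 were called higher and 1 lower, with a median log2 change of 0.86 (72 higher and 3 lower, median 0.53, with library totals alone). Their summed level was 20346 to 20610 CPM at passage 3 and 36894 to 40364 CPM at passage 20. Near-identical processed pseudogenes make single values of that family uncertain, and the 1 lower gene was Rpl7l1, a relative of Rpl7. No test of the difference between the families was made. The plot of gene groups sets their distributions side by side.

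**Figure D5:**
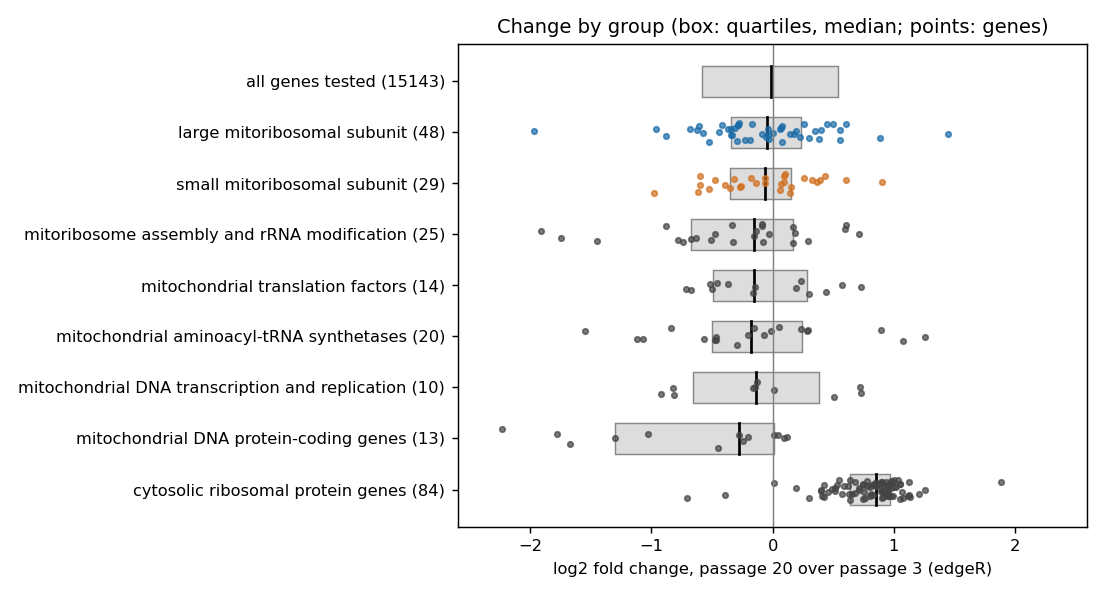
Log2 fold changes (passage 20 over passage 3) of each tested gene in the large and small mitoribosomal subunits, other gene groups of mitochondrial translation and the cytosolic ribosome, with a box for the quartiles and median of each group and of all genes tested. The mitoribosomal medians are -0.05 and -0.06, and that of the cytosolic ribosome is 0.86.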

How the data were processed

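RNA sequencing libraries of ciCPCs, 3 at passage 3 and 3 at passage 20, were compared by their labelled passage. For each sample the authors deposited counts per gene as whole numbers, which are the basis of all results, and log2 values per gene whose transformation is not stated and which entered 1 alternative. Per the submitters' processing notes, the tools were HISAT2 2.0.5, SAMtools, HTSeq and DESeq2 with GRCm38. Annotation release and strandedness of the counting were not given in the sources used here. Tables of the whole series were not used. Identifiers were matched to GENCODE M21 (53706 of 53801), which gave symbols, positions, exon lengths and overlaps.

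The members and gene lists were chosen with earlier results of these data known. A filterByExpr filter kept 15143 genes. TMM scaling and the robust quasi-likelihood test of edgeR 4.0.16 were run in R 4.3.3, with Benjamini-Hochberg adjustment at 0.05, after a check on simulated data. The common biological coefficient of variation was 7.05%. Depth was 11387738 to 17721788 counts per library, and 70 members had at least 100 counts in every library. Alternatives used DESeq2 1.42.0, limma 3.58.1 and mgcv 1.9.3 (offsets for GC content and length), other scalings and filters, thinning, and each library left out in turn.

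Named members were the 8 largest rises and the 8 largest falls among those called, the 6 highest and the 3 lowest per kilobase, members that missed the filter, those whose place differs from their symbol with the Mrps18 genes, 3 genes known in human cardiomyopathy, and the stalk, central protuberance and exit tunnel. Of each other list, up to 2 genes per direction with the smallest adjusted p were named, or all where a list had fewer than 10 genes, and examples of overlapping or head-to-head genes and single markers were chosen after their values were seen.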

Additional observations from a re-analysis of the deposited data

How the results depend on the processing

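In each of 19 fits to all genes, at the threshold of 0.05, 8 members were called higher (Mrpl24, Mrpl28, Mrpl30, Mrpl32, Mrpl38, Mrpl45, Mrps9 and Mrps30) and 22 lower. Called members numbered 18 higher and 27 lower by DESeq2, and 20 and 31 by limma-voom. Leaving out each library in turn gave 16 to 21 higher and 24 to 35 lower, with a median log2 change of -0.10 to -0.04. The most calls were lost without the second library at passage 20 (10 members), and without the third 5 were gained. Calls lost in at least 1 of these fits were those of Mrpl2, Mrpl9, Mrpl21, Mrpl35, Mrpl40, Mrpl42, Mrpl46, Mrpl49, Mrpl58, Mrps14, Mrps16, Mrps18a and Mrps28. Of the 51 called members, 36 had changes under 1.5-fold, and p-values rest on 3 libraries per passage.

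With library totals alone, 8 members were higher and 50 lower (large subunit 6 and 32, small subunit 2 and 18), with medians of -0.38, -0.38 and -0.39. Signs are compared here only for members called with TMM or in the alternative fit, and members called in neither are not listed. The sign turned for Mrps24 (-0.23), Mrpl13 (-0.27), Mrps5 (-0.26), Mrpl9 (-0.10), Mrpl37 (-0.25), Mrpl15 (-0.25), Mrpl47 (-0.33), Mrps28 (-0.0068), Mrpl50 (-0.26), Mrpl35 (-0.033), Mrps14 (-0.069), Mrps36 (-0.27) and Mrpl42 (-0.072). Upper-quartile factors moved the median to -0.13 (large subunit -0.12). Offsets for GC content and length moved the large-subunit median to -0.17 and, among members called in either fit, turned Mrps28 (-0.021). The cause was not tested. A threshold of 0.01 left 13 large-subunit genes lower. Members sharing no exon base, a choice made after seeing the data that leaves fewer genes, gave 17 lower with a median of 0.058 (large subunit 11 lower and 0.066, small subunit 6 lower). The large-subunit share was 65.9% and 66.6% by longest transcript, 69.99% and 71.2% by structure, and 66.2% and 66.8% without Mrpl41 and Mrpl45, the last chosen after seeing the data.

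The replicate numbers did not pair the samples (correlations of deviations 0.0143, -0.0273 and 0.0454). With a replicate block, 20 members were called higher and 31 lower, and no member changed its call. With the replicate block and GC and length offsets, the large-subunit median was -0.17 and Mrps28 stood at -0.021.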
